A study of Mus musculus with 4 samples.

Results

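Fatty acid oxidation was followed through 10 genes, Pdk4, Cpt1a, Cpt2, Acadm, Acadl, Acadvl, Hadh, Hadha, Hadhb and Plin2, chosen by symbol from the 32285 genes counted in single cells of mouse pancreatic islets. Each symbol matched 1 gene. The 4 single-cell libraries came from male mice and crossed 2 Pax4 genotypes with 2 diets. WT SCD and HH SCD were wildtype and homozygous Pax4 knock-in (HH) mice, 12 weeks old, kept on standard chow (SCD). WT HFD and HH HFD were the same genotypes at 16 weeks after 4 weeks of high-fat diet (HFD). All mice were littermates on a C57BL6/N background, and the knock-in changes 1 residue of the endogenous gene in every cell. Islets of 2 to 3 mice were pooled for each library and dissociated with trypsin, so each group was 1 library and no mouse can be told from its pool mates. No p-value is given for that reason, and every interval below is a 95% interval of counting error only. Library and group cannot be told apart, nor can the 4 weeks of age and the diet.

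Fatty acids enter mitochondria as carnitine esters made by CPT1 at the outer membrane, and CPT2 turns them back into acyl-CoA inside. Acyl-CoA dehydrogenases then open each round of beta-oxidation for very long (ACADVL), long (ACADL) and medium (ACADM) chains, and the trifunctional protein (HADHA and HADHB) and the short-chain 3-hydroxyacyl-CoA dehydrogenase HADH carry out the later steps. PDK4 phosphorylates pyruvate dehydrogenase and so spares glucose when fatty acids are burned, and PLIN2 coats lipid droplets. Many of these genes are known targets of the PPAR nuclear receptors, which bind fatty acids as partners of RXR. In beta cells HADH is also known as a brake on amino acid-stimulated insulin secretion through glutamate dehydrogenase.

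Cells were grouped by the hormone that held at least 80% of their insulin, glucagon, somatostatin and pancreatic polypeptide UMIs. Insulin-dominant cells numbered 1914 (WT SCD), 1890 (HH SCD), 1043 (WT HFD) and 2675 (HH HFD). Glucagon-dominant cells numbered 369, 416, 254 and 425 in the same order, and somatostatin-dominant cells 182, 217, 108 and 168. Endothelial-like cells, named from their markers, numbered 112, 84, 144 and 190. The endothelial markers below also defined the endothelial-like class, and the delta list holds Sst, so their levels there do not test the classes. All 8 beta cell markers were at or above 10 CPM (UMIs of the gene per 1000000 UMIs summed over the cells of the class) in insulin-dominant cells, all 8 alpha cell markers in glucagon-dominant cells and all 8 endothelial markers in endothelial-like cells. Of 8 delta cell markers 6 were at or above 10 CPM in somatostatin-dominant cells. Markers of other classes reached that level too. Of 8 pancreatic polypeptide cell markers 7 did so in glucagon-dominant cells, and of 8 alpha cell markers 4 in insulin-dominant cells, in every library. The libraries held 68011082 to 104810105 UMIs over 4665 to 7123 barcodes, and any pair of them shared 6 to 11 barcodes. The share of barcodes that passed the filters was 38.3% in WT HFD and 61.6% to 67.8% in the others. Pax4 had 0 UMIs in all 4 libraries, so the knock-in could not be checked by its own transcript.

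Promoter sequence for all 10 genes was matched in RefSeq (GRCm38.p6). The stretches before the start are shown for the 4 loci on which the results turn, in lower case, with the AGGTCA hexamer of nuclear receptor sites and the CCAAT box in capitals, read on either strand. They are the upstream windows of Pdk4 (chr6:5496310-5496528, minus strand), Plin2 (chr4:86670061-86670309, minus strand) and Hadh (chr3:131272102-131272351, minus strand), and the stretch between the divergent starts of Hadha and Hadhb (chr5:30155163-30155247, given on the plus strand). All lie outside the bodies of these genes in GENCODE M21.
Pdk4: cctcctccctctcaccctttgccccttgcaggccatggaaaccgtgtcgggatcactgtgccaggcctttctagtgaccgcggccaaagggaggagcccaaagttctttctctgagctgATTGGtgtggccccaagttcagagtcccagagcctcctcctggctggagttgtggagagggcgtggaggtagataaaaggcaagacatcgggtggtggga
Plin2: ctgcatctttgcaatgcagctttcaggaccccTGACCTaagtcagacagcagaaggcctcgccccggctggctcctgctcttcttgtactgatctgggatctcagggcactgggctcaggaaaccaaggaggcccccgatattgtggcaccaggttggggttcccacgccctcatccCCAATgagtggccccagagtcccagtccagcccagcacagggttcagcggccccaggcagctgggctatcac
Hadh: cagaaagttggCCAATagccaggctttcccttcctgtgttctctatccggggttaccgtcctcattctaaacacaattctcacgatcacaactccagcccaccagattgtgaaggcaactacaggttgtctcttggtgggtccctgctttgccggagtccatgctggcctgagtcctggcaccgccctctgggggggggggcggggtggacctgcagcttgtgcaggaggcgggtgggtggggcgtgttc
Hadha and Hadhb: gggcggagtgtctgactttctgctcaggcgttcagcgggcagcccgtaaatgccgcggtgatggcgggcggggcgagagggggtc
Plin2 carried the hexamer, as did Cpt1a, Acadm and Acadvl, which makes 4 of the 10 genes, against 14.0% of 32851 RefSeq promoter windows of 250 bases. A direct repeat of AGGNCA with 1 base between, the kind of site PPAR and RXR bind, was searched on both strands and found in 0 of the 10 windows and in 0.338% of all windows. Pdk4, Cpt1a, Hadh and Plin2 carried CCAAT, against 33.8% of all windows. The Cpt1a window (chr19:3323051-3323350, plus strand) lies inside the GENCODE M21 body of Cpt1a, which starts at 3322334. Its matches are thus upstream of the RefSeq start only. A match is a description of the letters and not a bound site. The 85 bases between Hadha and Hadhb, whose proteins form 1 enzyme, separate their annotated starts.

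The members were not spread evenly over the islet. Among the classes compared, Pdk4 was highest in glucagon-dominant cells. There it stood at 54.4 CPM in WT SCD, 55.6 CPM in HH SCD, 134 CPM in WT HFD and 118 CPM in HH HFD, from 252, 260, 541 and 527 UMIs. Insulin-dominant cells held 0.0778 to 0.305 CPM, and somatostatin-dominant cells had 0 UMIs in 3 libraries and 2 UMIs in HH HFD. The floor of 3 counts set for a count of 0 is 1.45 to 2.20 CPM there, and the exact Poisson intervals reach 1.78 to 2.71 CPM. The trace in insulin-dominant cells was 0.143% to 0.289% of the glucagon-dominant level, while Gcg itself was carried there at 0.0763% to 0.168%. Gcg in insulin-dominant cells gauges free RNA, that is transcripts of lysed cells caught in every droplet, so the trace is not read as expression. Endothelial-like cells stood between, at 3.69 to 19.9 CPM, above insulin-dominant cells in 4 of 4 libraries. Pancreatic polypeptide-dominant cells, too few to be compared, held 3.94, 7.43, 33.0 and 22.7 CPM in WT SCD, HH SCD, WT HFD and HH HFD, from 4, 11, 22 and 42 UMIs.

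Hadh showed the opposite pattern among hormone cells. Its level was 455, 390, 441 and 331 CPM in insulin-dominant cells of WT SCD, HH SCD, WT HFD and HH HFD. Somatostatin-dominant cells held 336 to 363 CPM, and the ranges of these classes over the libraries overlapped. Without hormone and mitochondrial genes in the total they did not, at 955 to 1256 CPM in insulin-dominant and 503 to 537 CPM in somatostatin-dominant cells. Glucagon-dominant cells held 9.84 to 21.2 CPM. In each library insulin-dominant cells were thus above glucagon-dominant cells, by 21.5-, 25.7-, 27.4- and 33.7-fold in the same order. The low level in glucagon-dominant cells was 2.97% to 4.65% of that in insulin-dominant cells, where Ins2 carried over at 1.62% to 2.40% and Mafa, a beta cell factor, at 1.46% to 2.45%. The Hadh level in glucagon-dominant cells was thus not far above the carry-over of beta cell transcripts. Somatostatin-dominant cells carried Ins2 at 1.86% to 2.44% and Hadh at 79.4% to 101%, far above that carry-over. Endothelial-like cells held 62.7 to 99.8 CPM.

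The remaining enzymes differed less between classes. Acadm and Acadl were lowest in insulin-dominant cells (7.48 to 8.64 and 14.5 to 17.2 CPM), followed by glucagon-dominant (10.9 to 16.4 and 28.0 to 40.1 CPM), somatostatin-dominant (25.7 to 28.9 and 55.1 to 71.4 CPM) and endothelial-like cells (43.3 to 70.2 and 76.2 to 100.5 CPM), with no overlap between neighbours over the 4 libraries. Hadha and Hadhb were highest among hormone cells in somatostatin-dominant cells, at 97.9 to 112 and 117 to 131 CPM, and lowest in insulin-dominant cells, at 30.5 to 39.8 and 34.7 to 48.2 CPM. Among these 4 classes Plin2 and Cpt1a were highest in endothelial-like cells, at 108 to 178 and 47.9 to 86.9 CPM. Hormone UMIs filled a median of 54.5% to 56.0% of an insulin-dominant cell against 31.5% to 35.7% of a glucagon-dominant one, which lowers the CPM of every other gene in the former. Without hormone and mitochondrial genes in the total, Acadl was 41.1 to 47.6 CPM in insulin-dominant and 45.7 to 69.4 CPM in glucagon-dominant cells, ranges that overlap. On that scale Acadl in endothelial-like cells, at 80.3 to 105 CPM, overlapped somatostatin-dominant cells too, at 79.5 to 106 CPM, and was the higher in 2 of 4 libraries. Between insulin- and glucagon-dominant cells the ranges of Acadm, Acadvl, Hadha, Hadhb, Cpt1a, Cpt2 and Plin2 overlapped on that scale too. Only Pdk4 and Hadh thus kept insulin- and glucagon-dominant cells apart on both scales. The plot of levels by class shows these patterns.

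**Figure D1:**
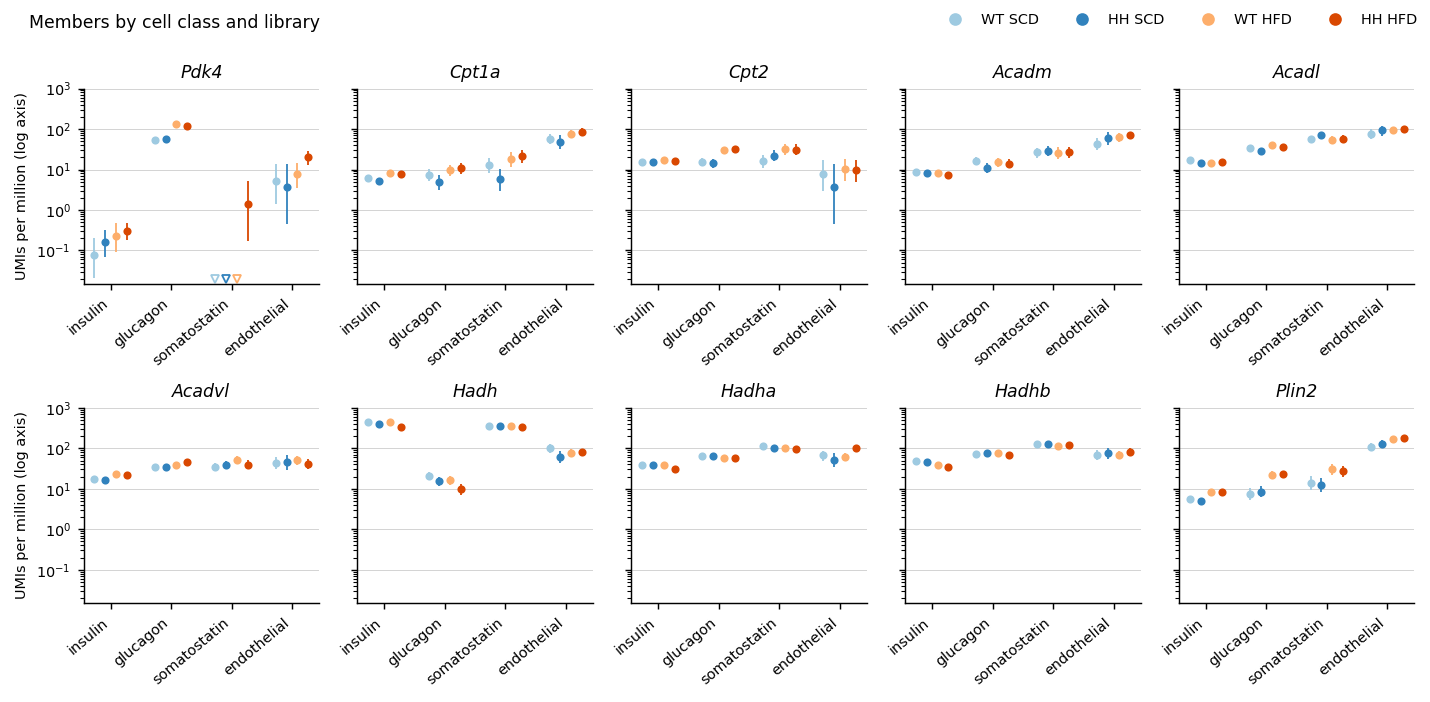
Level in CPM of each of the 10 genes (log axis) in 4 cell classes, with 1 point for each library and bars for the exact Poisson interval. Open triangles mark 0 UMIs. Pdk4 stood at 54.4 to 134 CPM in glucagon-dominant cells and below 0.4 CPM in insulin-dominant cells, and Hadh at 331 to 455 CPM in insulin-dominant and 9.84 to 21.2 CPM in glucagon-dominant cells.

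In glucagon-dominant cells 3 of the members differed between the diets in both genotypes. A gene was called where its mean was at least 10 CPM, its fold at least 1.5 and its interval clear of 0 on the log2 scale. Pdk4, Cpt2 and Plin2 rose on HFD in WT and in HH, and Hadh fell in HH. These were 3 of the 9 members that passed the minimum in each genotype, where 4.09% (WT) and 4.36% (HH) of 7246 genes were called up and 1.88% in both. Plin2 was under 10 CPM in both SCD libraries and passed the minimum only through HFD, so its count as a rise is tied to that filter. The members were also chosen with earlier results of these data known, so these counts are descriptions. The counts of falls were 0 and 1, against 7.11% and 7.81% of all genes. The median log2 ratio of the 10 members was 0.19 in WT and 0.38 in HH, beside medians of -0.06 and -0.07 over all genes tested.

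Pdk4, the kinase, rose by a log2 ratio of 1.30 (1.08 to 1.52) in WT and 1.08 (0.87 to 1.30) in HH. Both HFD libraries were above both SCD libraries, and the intervals of the levels did not overlap between diets. The ratio in HH was below that in WT by 0.22, with an interval of -0.52 to 0.09 for the difference, which holds 0. With 1 library in each group a different response of the genotypes was not tested. More glucagon-dominant cells carried the transcript. The share with at least 1 Pdk4 UMI was 40.7%, 38.9%, 74.4% and 60.5% in WT SCD, HH SCD, WT HFD and HH HFD. Depth differed between the libraries, with a median of 9971 to 15524.5 UMIs per cell. After every cell was thinned to 3000 UMIs the shares were 13.6% (10.2% to 17.5%), 15.9% (12.5% to 19.7%), 32.3% (26.6% to 38.4%) and 25.4% (21.3% to 29.8%), and both HFD intervals lay above both SCD intervals. In insulin-dominant cells, where the level is near that of free RNA, the share before thinning was 0.157% to 0.748% at a median of 23832 to 29383 UMIs per cell. The 1% of glucagon-dominant cells with the most Pdk4 held 5.91% to 8.08% of its UMIs, so the transcript was spread over many cells.

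Cpt2, which completes the carnitine shuttle, had 15.5, 14.1, 30.2 and 32.4 CPM in glucagon-dominant cells of WT SCD, HH SCD, WT HFD and HH HFD. Its log2 ratio was 0.96 (0.53 to 1.40) in WT and 1.20 (0.77 to 1.64) in HH. Cpt1a, the partner at the outer membrane, did not reach 10 CPM on average. It stood at 7.34, 4.92, 9.66 and 10.7 CPM, with ratios of 0.40 (-0.30 to 1.10) and 1.12 (0.38 to 1.91). Plin2, the droplet coat, had 7.56 and 8.56 CPM on SCD and 21.8 and 23.0 CPM on HFD, a ratio of 1.53 (0.95 to 2.14) in WT and 1.43 (0.89 to 1.99) in HH. For Cpt2 and Plin2, as for Pdk4, neither HFD library overlapped an SCD library.

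The members that act in the oxidation spiral gave no rise that was called. Acadl stood at 35.0, 28.0, 40.1 and 35.1 CPM, Acadvl at 33.7, 34.5, 38.2 and 45.2 CPM and Acadm at 16.4, 10.9, 15.1 and 14.1 CPM, and none was called for diet. Hadha had 63.7, 64.8, 57.2 and 56.1 CPM, and Hadhb 72.1, 78.5, 75.3 and 69.8 CPM, with diet intervals that held 0 in both genotypes. The diet interval of Acadvl was clear of 0 in HH alone (0.39, 0.08 to 0.70). The fall of Hadh in HH, by 0.63 on the log2 scale (-1.20 to -0.06), was 44 against 71 UMIs. That call ended when hormone and mitochondrial genes were left out of the total (-0.54), or dominance was set at 50% (-0.55) or 95% (-0.35). It also ended when free RNA was subtracted, although the ratio was then further from 0, at -1.03. The ratio was below 0 under 16 of 16 alternatives.

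**Figure D2:**
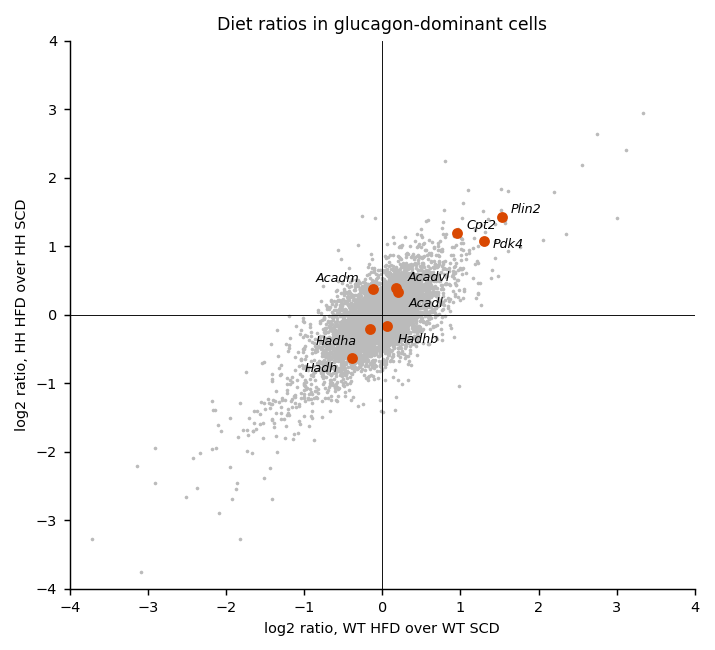
Each point is 1 of 7246 genes in glucagon-dominant cells, placed by its log2 ratio of HFD over SCD in WT (x) and in HH (y), which share no library. Of the 9 members that passed 10 CPM, drawn in orange, Pdk4, Cpt2 and Plin2 lie at 0.96 to 1.53 on x and 1.08 to 1.43 on y, and the other 6 lie within the body of the grey points (1 gene falls outside the axes).

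Stress-associated transcripts moved with the same libraries. The summed level of 12 dissociation and heat shock genes in glucagon-dominant cells was 4594 and 5693 CPM on SCD and 9410 and 9432 CPM on HFD, with all 12 genes at or above 10 CPM in each library. The median mitochondrial share of glucagon-dominant cells split by diet too, at 5.56% and 5.37% on SCD and 4.11% and 4.18% on HFD. The part of either in the rise of Pdk4, Cpt2 and Plin2 was not tested. Endothelial-like and macrophage-like cells both hold more Plin2 than hormone cells. In glucagon-dominant cells the 8 endothelial markers summed to 10.6, 8.56, 16.6 and 17 CPM in WT SCD, HH SCD, WT HFD and HH HFD, against 22018 to 24067 CPM in endothelial-like cells, with 0 to 1 of them at 0 UMIs. The 8 macrophage markers summed to 56.6, 71.5, 69.6 and 79.1 CPM, with 1 to 3 of them at 0 UMIs and 1 at or above 10 CPM. Acinar cell markers, which did not enter the definition of the classes, moved with diet. The 8 of them summed to 1.30, 0.64, 9.42 and 15.4 CPM, with 5 and 6 at 0 UMIs on SCD, 1 and 0 on HFD, and 0 at or above 10 CPM in any library. The part of such cells, or of their free RNA, in the rises of Pdk4, Cpt2 and Plin2 was not tested.

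Somatostatin-dominant cells showed the Plin2 pattern with fewer UMIs. Plin2 stood at 14.3, 12.5, 30.8 and 26.9 CPM in WT SCD, HH SCD, WT HFD and HH HFD, a rise of 1.11 (0.39 to 1.85) in WT and 1.10 (0.35 to 1.88) in HH. Cpt2 was the second member called in WT, at 15.8 CPM on SCD and 31.6 CPM on HFD, and Cpt1a the second in HH, at 5.79 and 21.3 CPM. The HH SCD level of Cpt1a came from 12 UMIs. Cpt2 in HH, at 22.2 and 31.2 CPM, and Cpt1a in WT, at 12.8 and 18.4 CPM, were not called. The 2 called of 9 tested in each genotype compare with 5.42% (WT) and 5.48% (HH) of 8359 genes called up. Dissociation and heat shock genes summed to 8640 and 10736 CPM on SCD and 20214 and 13323 CPM on HFD in these cells, the median mitochondrial share was 4.07% and 4.19% on SCD and 3.36% and 3.42% on HFD, and their part was not tested. Hadh did not shift, at 361 and 363 CPM in WT and 356 and 336 CPM in HH, with intervals of -0.16 to 0.18 and -0.25 to 0.08 for the log2 ratio.

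Endothelial-like cells held more Plin2 than any of these 3 hormone classes, with 108 and 131 CPM on SCD and 175 and 178 CPM on HFD. Its log2 ratio of 0.70 (0.32 to 1.09) was called in WT, and that of 0.44 (0.05 to 0.85) in HH was not. Cpt1a (0.86, 0.23 to 1.54) and Hadha (0.95, 0.35 to 1.60) were called in HH. The 1 member called of 8 in WT and 2 of 8 in HH stand beside 10.5% and 9.54% of 8154 genes called up in this small class, so these counts are not a result about the members. Pdk4 had 4, 2, 9 and 25 UMIs in the same order of libraries. Dissociation and heat shock genes summed to 11802 to 12568 CPM on SCD and 11977 to 14547 CPM on HFD.

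Insulin-dominant cells gave a different picture. None of the 6 members that passed 10 CPM there was called for diet in either genotype, in a class where 0.948% of 6014 genes were called up and 4.31% down in WT, and 1.73% up and 6.48% down in HH. With 1043 to 2675 cells the counting intervals were narrow, and several small differences were clear of 0 in both genotypes. The median log2 ratio of the 10 members was 0.05 in WT and 0.06 in HH, and that of all genes tested -0.04 and -0.08.

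Acadvl, which opens the oxidation of very long chains, had 17.5, 16.5, 23.6 and 22.5 CPM in insulin-dominant cells of WT SCD, HH SCD, WT HFD and HH HFD. The HFD libraries were above the SCD libraries by 0.43 (0.29 to 0.58) in WT and 0.45 (0.32 to 0.57) in HH. Acadl, the long-chain dehydrogenase, had 17.2, 14.8, 14.5 and 15.02 CPM, with ratios of -0.25 (-0.42 to -0.08) in WT and 0.02 (-0.12 to 0.16) in HH. The ratio in HH was above that in WT by 0.27 (0.06 to 0.49). Hadhb lay lower on HFD in both genotypes, with 48.2, 46.8, 39.7 and 34.7 CPM and ratios of -0.28 (-0.38 to -0.18) and -0.43 (-0.51 to -0.35). Hadha, its partner subunit and head-to-head neighbour, had 39.8, 38.9, 37.7 and 30.5 CPM, with ratios of -0.08 (-0.18 to 0.03) and -0.35 (-0.44 to -0.26). The enzyme subunits thus both lay lower on HFD in HH, and in WT only Hadhb was clear of 0. Cpt2, which rose in glucagon-dominant cells, stayed at 15.3, 14.9, 17.1 and 15.9 CPM. The difference between the classes in its diet ratio, insulin-dominant minus glucagon-dominant, was -0.80 (-1.25 to -0.35) in WT and -1.11 (-1.55 to -0.66) in HH.

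The members below 10 CPM in insulin-dominant cells were Pdk4, Cpt1a, Acadm and Plin2. Plin2 had 5.68 and 4.96 CPM on SCD and 8.22 and 8.14 CPM on HFD, a ratio of 0.53 (0.28 to 0.78) in WT and 0.71 (0.49 to 0.94) in HH. It was higher on HFD in each of the 4 cell classes and both genotypes, and its ratio in insulin-dominant cells was below that in glucagon-dominant cells by 1.0 (-1.61 to -0.38 for the difference) in WT and by 0.71 (-1.28 to -0.14) in HH. Cpt1a had 6.34, 5.14, 8.15 and 7.55 CPM, with ratios of 0.36 (0.12 to 0.60) and 0.55 (0.33 to 0.78). Acadm lay between 7.48 and 8.64 CPM with both intervals across 0. Dissociation and heat shock genes were lower on HFD in insulin-dominant cells, at 4402 and 4402 CPM on SCD and 3423 and 2219 CPM on HFD. Their part in the Plin2 and Cpt1a values was not tested.

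**Figure D3:**
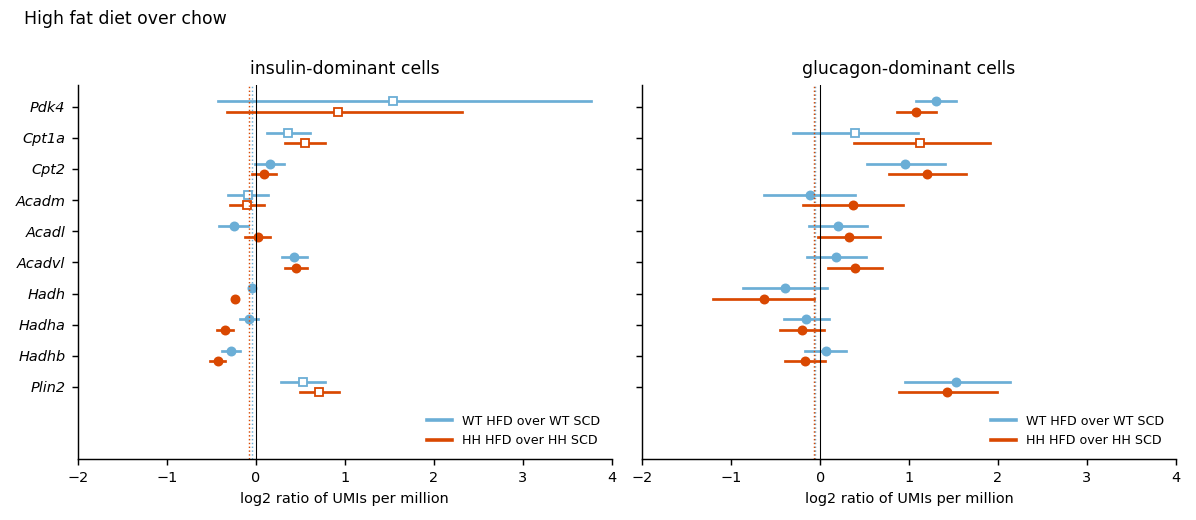
Log2 ratio of HFD over SCD for each member in insulin-dominant (left) and glucagon-dominant cells (right), with 95% counting intervals. Open squares are members under 10 CPM on average and dotted lines the median of all genes tested. Pdk4, Cpt2 and Plin2 lie at 0.96 to 1.53 in glucagon-dominant cells, and in insulin-dominant cells no member that passed 10 CPM lies above 0.45. Of those under 10 CPM there, Plin2 lies at 0.53 (WT) and 0.71 (HH) and Cpt1a at 0.36 and 0.55. Acadm lies at -0.09 and -0.10, and Pdk4, near the level of free RNA, at 1.55 and 0.92.

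Comparison of the genotypes within each diet asks whether the Pax4 change alters these genes. In insulin-dominant cells 0 of 6 members were called in HH SCD over WT SCD or in HH HFD over WT HFD. Among the 6014 genes 0.0166% were called up and 0.216% down on SCD, and 0.565% up and 1.81% down on HFD. Members and all genes lay slightly lower in HH. The member medians were -0.09 on SCD and -0.11 on HFD, and the medians of all genes -0.08 and -0.13.

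Hadh was the only member whose interval lay below 0 in HH on both diets. Its levels of 455 and 390 CPM on SCD and 441 and 331 CPM on HFD came from 13562 to 23379 UMIs. The ratio of HH over WT was -0.22 (-0.25 to -0.19) on SCD and -0.41 (-0.44 to -0.38) on HFD, below the median of all genes in both diets. The 10th percentile of all genes was -0.22 on SCD and -0.35 on HFD. Hadh thus lay close to that percentile on SCD and below it on HFD. Other measures stood apart in the HH HFD library. In insulin-dominant cells alpha cell markers summed to 3480 CPM there and to 1988 to 2190 CPM in the others, delta cell markers other than hormones to 308 against 80.5 to 178 CPM, beta cell markers other than hormones to 1717 against 2061 to 2387 CPM, and dissociation and heat shock genes to 2219 against 3423 to 4402 CPM, and the median mitochondrial share was 4.02% against 5.0% to 5.19%. Their part in the lower Hadh was not tested. The share of insulin-dominant cells with a Hadh UMI after thinning to 3000 UMIs was 74.5% (72.4% to 76.4%) in WT SCD, 67.7% (65.5% to 69.8%) in HH SCD, 71.3% (68.5% to 74.1%) in WT HFD and 60.6% (58.7% to 62.5%) in HH HFD. Both HH libraries were therefore below both WT libraries in level and in share. The diet ratio of Hadh was -0.05 in WT and -0.24 in HH, a difference of -0.19 (-0.23 to -0.15, counting error only). With 1 library in each group this difference was not tested. Somatostatin-dominant cells had genotype ratios of -0.02 (-0.17 to 0.13) on SCD and -0.11 (-0.30 to 0.07) on HFD. The insulin-dominant ratio was below these by 0.20 (-0.35 to -0.05 for the difference) and by 0.30 (-0.48 to -0.11). Median-of-ratios size factors moved the median of all genes on HFD by 0.13, to -0.01, and the Hadh ratio to -0.29.

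The lower Hadh of HH was present in 2 sets of insulin-dominant cells. The first set lacked Mafa, a maturity factor, and held a UMI from any of Aldh1a3, Gc and Serpina7, genes tied to loss of beta cell identity. It had 73 cells in each SCD library, 78 in WT HFD and 564 in HH HFD. Their Hadh level was 423, 359, 423 and 305 CPM. All other insulin-dominant cells had 456, 391, 442 and 339 CPM. Within either set HH was below WT on both diets, with intervals that did not overlap. In each library the first set was below the second, but only in HH HFD were their intervals apart, at 296 to 314 and 334 to 344 CPM. In WT HFD they overlapped, at 397 to 451 and 434 to 450 CPM.

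Hadha had a genotype ratio of -0.03 (-0.12 to 0.06) on SCD and -0.30 (-0.41 to -0.20) on HFD, and Hadhb of -0.04 (-0.12 to 0.04) and -0.19 (-0.29 to -0.09). Acadl was at -0.22 (-0.36 to -0.08) and 0.05 (-0.11 to 0.22), and Cpt1a at -0.30 (-0.54 to -0.06) and -0.11 (-0.33 to 0.11), so neither was clear of 0 on both diets. For Cpt2, Acadm, Acadvl and Plin2 both intervals held 0. In the other classes, glucagon-dominant Acadm was lower in HH on SCD, with 10.9 CPM against 16.4 CPM in WT (-0.59, -1.13 to -0.06), and somatostatin-dominant Cpt1a too, with 5.79 CPM against 12.8 CPM (-1.14, -2.27 to -0.09). On HFD both intervals held 0, and on SCD these calls were kept under 9 and 11 of 16 alternatives. Glucagon-dominant Hadh was lower in HH by 0.48 (-0.94 to -0.02) on SCD and by 0.71 (-1.30 to -0.14) on HFD, and with free RNA subtracted these were -0.53 and -1.33. Endothelial-like Hadh was lower in HH on SCD by 0.67 (-1.30 to -0.07) and Hadha higher in HH on HFD by 0.69 (0.26 to 1.13). Over all genes in endothelial-like cells the 10th percentile was -0.63 on SCD and the 90th percentile 0.48 on HFD. Shares of all genes called for genotype were not counted outside insulin-dominant cells. Glucagon-dominant Pdk4 was at 0.03 (-0.22 to 0.29) on SCD and -0.19 (-0.36 to -0.01) on HFD.

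**Figure D4:**
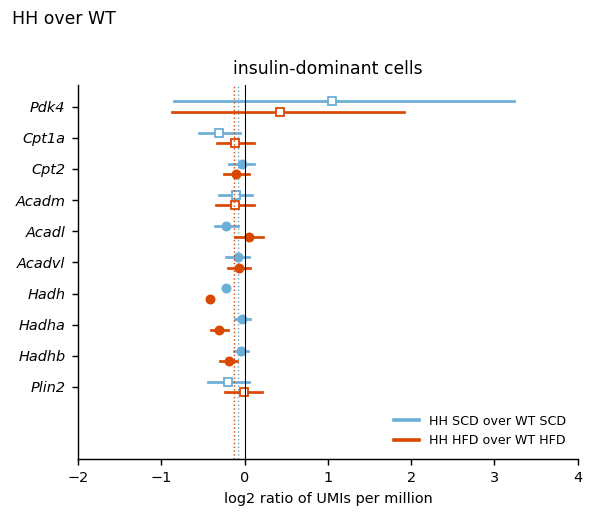
Log2 ratio of HH over WT for each member in insulin-dominant cells, on SCD and on HFD, with 95% counting intervals. Open squares are members under 10 CPM and dotted lines the median of all genes. Hadh lies at -0.22 and -0.41, left of both medians (-0.08 and -0.13). The 10th percentiles of all genes, not drawn, are -0.22 on SCD and -0.35 on HFD.

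**Figure D5:**
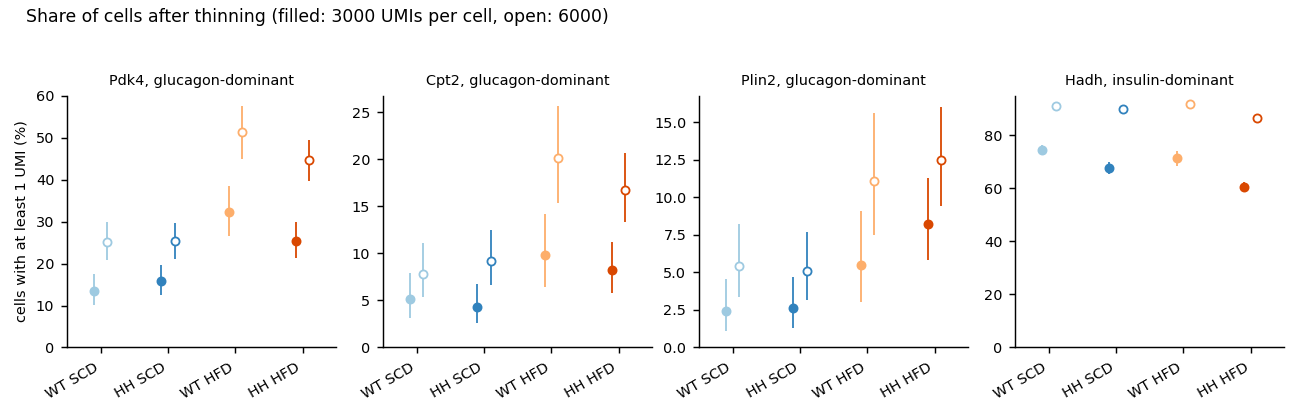
Percent of cells with at least 1 UMI after thinning to 3000 (filled) or 6000 UMIs (open), with exact binomial intervals, for Pdk4, Cpt2 and Plin2 in glucagon-dominant cells and Hadh in insulin-dominant cells. At 3000 UMIs the Pdk4 share was 13.6% and 15.9% on SCD and 32.3% and 25.4% on HFD, and the Hadh share was lowest, 60.6%, in HH HFD.

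Other genes of the pathway were counted in insulin-dominant cells from 7 lists. Among 20 other mitochondrial beta-oxidation enzymes, of which 10 were tested, 1 rose on HFD in WT and 2 in HH and 0 fell, where 0.948% and 1.73% of all genes were called up. The median log2 ratio was 0.22 in each genotype against -0.04 and -0.08 for all genes. Etfb, a subunit of the flavoprotein that takes electrons from the acyl-CoA dehydrogenases, rose in both, from 84.5 and 89.4 CPM on SCD to 137 and 135 CPM on HFD, by 0.70 (0.64 to 0.76) and 0.59 (0.54 to 0.64). None of the 6 tested genes of fatty acid uptake, activation and the carnitine shuttle, of the 9 tested peroxisomal genes or of the 6 tested genes of pyruvate dehydrogenase and its kinases was called for diet.

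The receptors differed between classes. Ppara was at 0.195 to 0.362 CPM in insulin-dominant cells and at 0 to 0.248 CPM in glucagon-dominant cells. Ppard reached 5.52 to 7.01 CPM in insulin-dominant and 15 to 24.2 CPM in glucagon-dominant cells. Pparg was at 2.99 to 3.99 CPM in insulin-dominant cells, had 0 UMIs in glucagon-dominant cells, where the floor of 3 counts is 0.642 to 0.743 CPM, and was at 21.0 to 35.1 CPM in endothelial-like cells. Of 7 tested receptor and coregulator genes 1 fell on HFD in HH, Nrip1, a corepressor of nuclear receptors, from 14.3 to 7.77 CPM, by 0.88 on the log2 scale (-1.05 to -0.71). Among all genes 4.31% in WT and 6.48% in HH were called down for diet, which is the background for this count and for the next 2 lists.

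Among 3 tested genes of 20 other PPAR targets 1 fell on HFD in HH. It was Lpl, the lipase that frees fatty acids from circulating triglyceride, with 82.9, 91.0, 59.4 and 33.1 CPM in WT SCD, HH SCD, WT HFD and HH HFD. Its diet ratio was -0.48 (-0.56 to -0.40) in WT and -1.46 (-1.53 to -1.38) in HH, and on HFD it was lower in HH than in WT by 0.84 (-0.93 to -0.75), the 1 call for genotype in the 7 lists. Among all 6014 genes 0.565% were called up and 1.81% down in HH HFD over WT HFD. Of 4 tested genes of lipid droplets and lipolysis 1 fell in WT, Fitm2, which helps droplets form, with 27.1, 24.0, 17 and 16.1 CPM in the 4 libraries and ratios of -0.67 (-0.82 to -0.53) in WT and -0.58 (-0.70 to -0.45) in HH.

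The genes whose levels ran most like those of the members were found by Pearson correlation of log2(CPM + 1) over 16 points, the insulin-, glucagon-, somatostatin- and pancreatic polypeptide-dominant cells of 4 libraries, among 4717 genes. The last class, with 31 cells in WT HFD, was not used in the comparisons, and elsewhere only some of its levels are given. The points share libraries and classes, so the values are descriptions. Pappa2 was most like Pdk4 (r = 0.962), followed by Higd1a, Rnf130, Gnai1 and Grb10. Sh3pxd2a was most like Hadh (r = 0.978), then Spock2, Pclo, Sv2a and Smim1. For Plin2 the nearest were Ndufs8 (r = 0.940), Cbfa2t3, Ubb, Trappc4 and Psmb5, and for Cpt1a Gemin7 (r = 0.901), Ahsa1, Eid2, Flywch1 and Rsrp1.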

How the data were processed

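Pancreatic islet cells were captured with 10x Genomics 3' v3.1 chemistry, and the authors counted reads with Cell Ranger 6.0 on GRCm38 (mm10), per the labels and methods. The deposited values are raw UMI counts of 32285 genes per cell barcode, with no normalization. Gene positions and sequences were taken from GENCODE M21 and RefSeq, which may differ from the annotation used for counting.

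Cells were kept with under 10% mitochondrial UMIs, 3000 to 50000 UMIs and 2000 to 5000 genes. Scrublet (in scanpy 1.11.5) was run per library. Its own threshold marked 102 cells in all, so the highest scores at an expected rate of 0.8% per 1000 cells were removed instead (348 cells), leaving 12404 of 22218 barcodes. A cell was called hormone-dominant when 1 hormone held at least 80% of hormone UMIs, these made at least 5% of its UMIs, and fewer than 10 UMIs came from markers of endothelial, macrophage, lymphocyte, stromal and ductal cells. With hormones under 5%, at least 3 marker UMIs and 80% of them in 1 list, it took that list's name. Classes were used with at least 50 cells in each library, and 1440 cells (11.6%) stayed unassigned. Pancreatic polypeptide-dominant cells and other small classes were not compared.

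UMIs were summed per class and library and given as CPM with exact Poisson intervals. Log2 ratios have exact conditional binomial intervals, with 3 counts as the floor for 0, and shares have Clopper-Pearson intervals. Differences between ratios have intervals from summed variances of logs. No test was run across the 4 libraries, since each group of genotype and diet was 1 library, and UMIs within a cell are not independent of each other, so true errors are wider. Genes were called as defined in the text. Free RNA means transcripts of lysed cells in droplets, gauged by hormones a class should lack. The scripts were checked on simulated counts. The members and lists were chosen with earlier results of these data known. All 10 members were named, and from each list up to 5 genes called the same way in both genotypes (diet) or on both diets (genotype), or up to 3 called in 1 where none was called in both. Alternatives covered scaling, cell filters, doublets, class cutoffs, free RNA, thinning and the calling rule. Python 3.11.15, scipy 1.17.1 and numpy 2.4.6 were used.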

Additional observations from a re-analysis of the deposited data

Results flagged for a closer look

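Lpl in insulin-dominant cells moved in opposite directions with genotype on the 2 diets. The log2 ratio of HH over WT was 0.13 on SCD and -0.84 on HFD, and both counting intervals were clear of 0. With 1 library in each group the difference was not tested. Its levels were 82.9 CPM in WT SCD, 91.0 CPM in HH SCD, 59.4 CPM in WT HFD and 33.1 CPM in HH HFD. None of the 10 members had opposite directions with both intervals clear of 0 in any of the 4 classes.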

How the results depend on the processing

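The results were recomputed under 16 alternatives, 15 of them planned and 1, no limit on other markers in hormone cells, chosen after seeing the data, as was running every alternative in glucagon- and somatostatin-dominant cells. They were run in insulin-, glucagon- and somatostatin-dominant cells, and not in endothelial-like cells. In those 3 classes no member that was called changed its direction. Pdk4 was called up on HFD in glucagon-dominant cells under 16 of 16 in both genotypes, with log2 ratios of 1.05 to 1.48 in WT and 0.87 to 1.17 in HH. Plin2 in those cells ranged from 1.28 to 1.91 in WT and 1.35 to 1.96 in HH, and Cpt2 from 0.86 to 1.03 and 0.97 to 1.30. The 3 members called up there became 1 with a minimum of 50 CPM in either genotype, since fewer genes then pass, and 1 in WT with cells thinned to 3000 UMIs, which leaves fewer counts. Cpt1a, not called there in the main setting, was called up in HH under 2 of 16. The 1 call down in HH, Hadh, became 0 with CPM without hormone and mitochondrial genes, free RNA subtracted (ratio -1.03 in place of -0.63), dominance of 95% or 50%, thinning or a minimum of 50 CPM, and beyond the thinning and the minimum the cause was not tested. In insulin-dominant cells the 0 calls up for diet became 1, Acadvl, in WT and in HH with a lower fold for calling. In HH they also became 1, Plin2, with CPM without hormone and mitochondrial genes or with no minimum of CPM. The 0 calls down in HH became 1 with thinning and 2 with a lower fold for calling, and the 0 calls down for HH HFD over WT HFD became 1 with that fold. In somatostatin-dominant cells the diet calls of Plin2 in both genotypes, of Cpt2 in WT and of Cpt1a in HH were each kept under 14 of 16. Calls for genotype were kept under 9 of 16 for glucagon-dominant Acadm on SCD, 12 of 16 for glucagon-dominant Hadh on HFD and 11 of 16 for somatostatin-dominant Cpt1a on SCD. Insulin-dominant Hadh stayed lower in HH under 16 of 16 alternatives, by -0.26 to -0.14 on SCD and -0.42 to -0.29 on HFD. Median-of-ratios size factors moved the median of all genes by 0.13 in HH HFD over WT HFD, to -0.01, and Hadh there to -0.29. No paired analysis was possible because each group had 1 library. Depth limits the somatostatin-dominant and endothelial-like classes most, where members had as few as 0 UMIs (Pdk4) and 2 UMIs (Cpt2).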

Other observations

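In glucagon-dominant cells, other genes of the pathway were counted after the data were seen. Klf11, a Kruppel-like factor listed with PPAR targets, rose from 14.5 CPM in WT SCD and 14.3 CPM in HH SCD to 35.2 and 30.9 CPM on HFD, by 1.28 (0.85 to 1.72) and 1.11 (0.67 to 1.55). Acaa2, the mitochondrial thiolase, rose from 14.7 and 11.6 CPM to 23.3 and 22.8 CPM, and Acad8, which acts on a branched-chain intermediate, from 8.85 and 8.13 to 13.9 and 13.2 CPM. Acad8 thus passed the minimum of 10 CPM only through HFD. Of 13 tested other mitochondrial enzymes 3 rose in WT and 2 in HH and 0 fell, with a median of 0.30 in each, where 4.09% and 4.36% of all genes were called up and the medians of all genes were -0.06 and -0.07. Of 10 tested receptors and coregulators 2 fell in each genotype, with medians of -0.24 in WT and -0.16 in HH, beside 7.11% and 7.81% of all genes called down. Ppargc1a, the PPAR coactivator, had 23.5 and 21.0 CPM on SCD and 5.20 and 5.37 CPM on HFD, and Nrip1 84.4 and 86.0 CPM on SCD and 29.2 and 28.6 CPM on HFD. Ppargc1a passed the minimum of 10 CPM only through SCD. Of 5 tested genes of lipid droplets and lipolysis 1 fell in each genotype, Fitm2, from 19.9 and 16.9 CPM to 12.1 and 10.5 CPM, and 1 rose in HH, Plin3, with a log2 ratio of 0.72 (0.22 to 1.24) there and 0.11 (-0.42 to 0.63) in WT. Of 8 tested genes of uptake, activation and the carnitine shuttle 1 rose in WT, 1 rose and 1 fell in HH, and none was called in both. Mlycd, malonyl-CoA decarboxylase, had a log2 ratio of 0.87 in WT and 0.05 in HH, Cpt1c of 0.55 and 0.95, called in HH, and Acsl4, an acyl-CoA synthetase, of -0.54 and -0.88, called in HH. Cpt1c, at 8.64 CPM in WT SCD and 8.35 CPM in HH SCD, passed the minimum only through HFD. Of 7 tested genes of pyruvate dehydrogenase and its kinases 0 rose and 1 fell in each genotype. These were Dld, the dihydrolipoamide dehydrogenase subunit, with -0.66 in WT and -0.44 in HH, and the kinase Pdk1 with -0.37 in WT and -0.60 in HH, called in HH. Of 10 tested peroxisomal genes 0 were called in either genotype.

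Pancreatic polypeptide-dominant cells, of which WT HFD had 31, were not compared. Their Pdk4 level was 3.94 CPM in WT SCD, 7.43 CPM in HH SCD, 33.0 CPM in WT HFD and 22.7 CPM in HH HFD, and Plin2 was at 7.88, 15.5, 37.5 and 23.2 CPM. Hadh was at 111, 124, 146 and 114 CPM in them. Macrophage-like cells, 13 to 90 in a library, held Plin2 at 188, 109, 256 and 511 CPM.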
